A study of Aedes aegypti with 6 samples.

Results

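Caspases are the proteases that carry out apoptosis, and inhibitor of apoptosis protein 1 (IAP1) is the protein that holds them in check. In insects an initiator caspase, Dronc, is kept inactive by IAP1, and once released it cleaves effector caspases, which then cut the proteins of the dying cell. In Drosophila testes, caspases also act without killing the cell, when spermatids are stripped of excess cytoplasm, and germ cells that fail in development are removed by cell death. The genes described here are the inhibitor IAP1 (AAEL009074), the initiator caspases Dronc (AAEL011562) and Dredd (AAEL014148), the effector caspases AAEL012143 and AAEL014348, and the related caspases CASPS18 (AAEL003444) and CASPS19 (AAEL003439) of the yellow fever mosquito, Aedes aegypti. These 7 genes were taken by identifier, whatever their values. The names come from that choice of identifiers and not from the deposited table, which gives identifiers only. Of the 7, 6 had a row in the table of 12813 genes, each with 1 transcript, and Dronc was not analysed here.

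The arrays compared testes of early male pupae from T37, a strain with meiotic drive, and from RED, a strain without it, with 3 separately extracted RNA samples each on 1-colour arrays. Meiotic drive is the passing on of a chromosome to more than its fair share of the gametes, and the design compares expression during spermatogenesis with and without it. Males of both strains were kept at 26°C and 80% humidity under 16 h of light and 8 h of dark. Each kind is represented by 1 strain, so the drive and every other difference between the strains cannot be told apart. The sources used here do not give the number of males behind a sample.

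The measured quantity is an intensity, the brightness of the labelled RNA bound to a gene's probes after RMA, a method that corrects background, normalises the arrays to each other and joins probes into 1 value. Array medians were close, from 1836 to 1985, but the dark ends were not: the 5th percentile of log2 intensity over genes was lowest on RED replicate 3, at 6.47, and highest on RED replicate 1, at 7.61. One array stood apart: across genes, which are not independent replicates, RED replicate 3 correlated with the other 5 arrays at r = 0.874 to 0.908, against 0.893 to 0.983 among those 5. It did not group with its own strain. Its r was 0.874 and 0.891 with RED replicates 1 and 2, and 0.889, 0.908 and 0.900 with T37 replicates 1, 2 and 3. The ranges overlap, since RED replicate 1 had r = 0.894 and 0.893 with T37 replicates 1 and 2. The strain difference of each gene is therefore given with and without RED replicate 3. Likeness of pattern between genes was measured only with that array. Since the table names no gene, marker genes of testis or of other tissues were not analysed here. In whole testes, fewer cells of a type and less RNA per cell cannot be told apart.

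None of the 6 measured genes passed the test between the strains. Differences are T37 minus RED on the log2 scale, from limma fitted to all genes, with an adjusted p under 0.05 as the threshold. The count of 0 of 6 stands beside 4.53% of all genes called in either direction (580 of 12813). At an unadjusted p under 0.05 limma found 1 of the 6, AAEL012143, beside 22.7% of all genes. For none of the 6 did the arrays of the strains separate without overlap, which they did for 28.7% of all genes. Fewer arrays overlap less often, and both figures moved with the arrays used. Without T37 replicates 1, 2 and 3 the count was 1, 0 and 2 of 6 (32.2%, 31.2% and 48.1% of all genes). Without RED replicates 1, 2 and 3 it was 1, 2 and 1 of 6 (32.7%, 40.6% and 49.0%). Without replicate 3 of both strains it was 4 of 6 (71.6%). By sign alone, 2 of the 6 were higher in T37 and 4 were lower. Their median difference was -0.18, and over all genes it was -0.0099. The median size of the difference, regardless of sign, was 0.31 for the 6 genes and 0.36 over all genes.

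**Figure D1:**
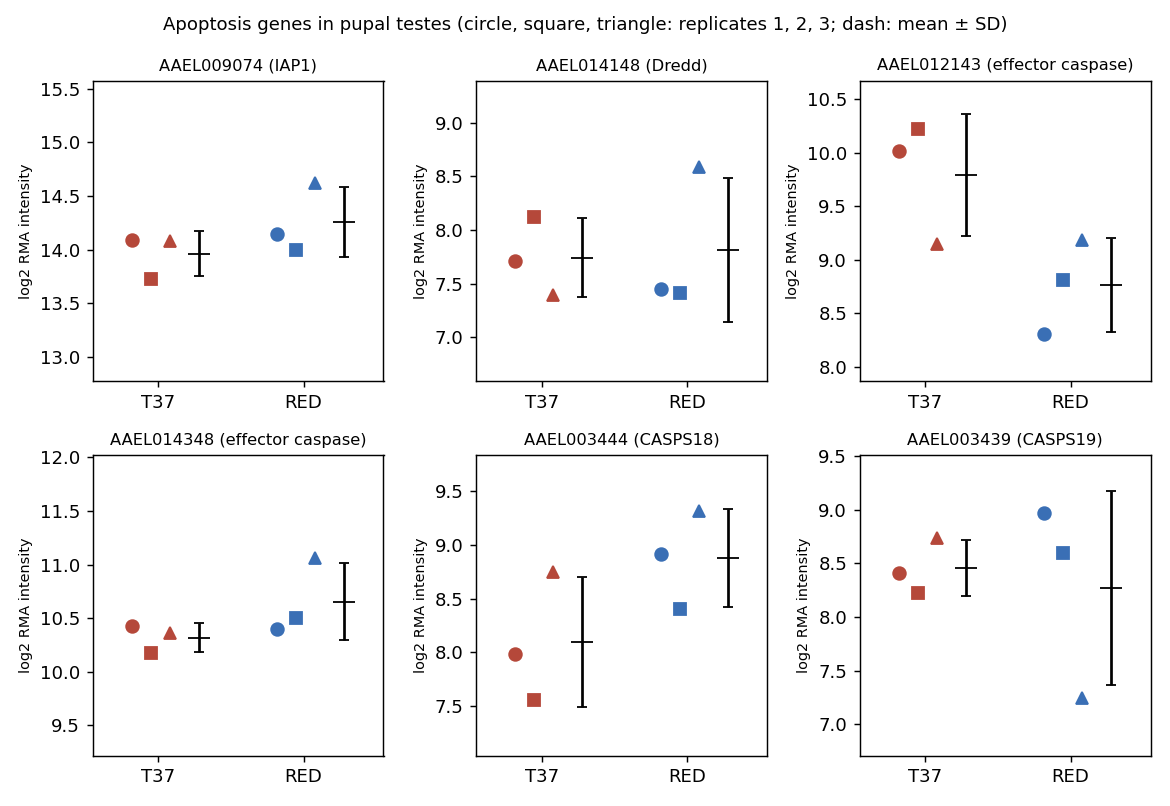
Log2 RMA intensity (vertical axis) of the 6 measured genes on the 3 T37 and 3 RED arrays, 1 panel per gene; symbols mark replicates 1, 2 and 3, and the dash with bars is the mean with the SD. All panels span the same log2 range, and in every panel the arrays of the strains overlap.

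IAP1, the inhibitor, lay at percentiles 89.8 to 96.9 of all genes on the 6 arrays, far from the dark end. Probes of different genes differ in brightness, so percentiles serve here only to show how near a gene lies to the dark end. Its intensity was 17388, 13502 and 17339 on T37 replicates 1, 2 and 3. On RED replicates 1, 2 and 3 it was 18133, 16338 and 25209. The highest value was that of RED replicate 3, and the RED replicate 2 value lay among the T37 values. Mean intensity in T37 was 16076 ± 2229, against 19894 ± 4690 for RED (SD, n = 3 each). The log2 difference was -0.29 (SE 0.23, 95% interval -0.85 to 0.27; limma adjusted p = 0.52), so the interval ran from 0.553-fold to 1.21-fold of the RED level. Without RED replicate 3 the difference was -0.11 (95% interval -0.61 to 0.40; limma adjusted p = 0.76).

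Dredd, which in Drosophila is best known for activating the immune factor Relish, lay near the dark end of the arrays, at percentiles 4.05 to 18.8. It was under the 5th percentile on 2 arrays, RED replicates 1 and 2. No detection calls were used here, so its level could not be told from background. Its intensity was 210, 279 and 168 on T37 replicates 1, 2 and 3, and 174, 170 and 384 on RED replicates 1, 2 and 3. RED replicates 1 and 2 were nearly equal, whereas RED replicate 3 was the highest of the 6 arrays. The log2 difference was -0.07 (SE 0.38, 95% interval -1.0 to 0.86; limma adjusted p = 0.94). Without RED replicate 3 its sign turned, to 0.31 (95% interval -0.31 to 0.94; limma adjusted p = 0.44).

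The effector caspases, which in apoptosis do the cutting downstream of the initiators, differed from each other in pattern. AAEL012143 had an intensity of 1033, 1196 and 568 on T37 replicates 1, 2 and 3. On RED replicates 1, 2 and 3 it had 318, 449 and 581. T37 replicates 1 and 2 stood above every RED array, but T37 replicate 3 fell just below RED replicate 3. AAEL012143 lay at percentiles 11.8, 19.9 and 26.0 on RED replicates 1, 2 and 3, and at 24.9 on T37 replicate 3. These values were toward the dark end, so the limit given for Dredd holds for them too. On T37 replicates 1 and 2 it lay at 37.8 and 40.5. Mean intensity in T37 was 932 ± 326, against 449 ± 132 for RED (SD, n = 3 each), and the log2 means were 9.80 ± 0.57 and 8.77 ± 0.44. The difference was 1.03 (SE 0.36, 95% interval 0.14 to 1.91), a 2.04-fold higher fitted level in T37, and did not pass after adjustment (limma adjusted p = 0.17). Of all genes, 89.9% had a smaller difference in size.

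The AAEL012143 difference was above 0 in each of its 18 alternatives, from 0.80 to 1.56. Some of these alternatives could not move the estimate and left it at 1.03, so their number overstates the support. When 1 array was left out the difference ran from 0.80 to 1.35. Without RED replicate 3 it was 1.23 (95% interval 0.33 to 2.14; limma adjusted p = 0.091) and did not pass in a fit that called 7.47% of all genes. Without replicate 3 of both strains it was 1.56 (95% interval 0.98 to 2.14; limma adjusted p = 0.0073), or 2.94-fold. In that fit of 4 arrays 32.9% of all genes were called, so a call there says little about this gene. The same holds for array weights, where it also passed (1.46; limma adjusted p = 0.011) beside 30.0% of all genes.

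AAEL014348, the other effector caspase, lay at percentiles 39.8 to 52.6. Its intensity was 1379, 1155 and 1312 on T37 replicates 1, 2 and 3, and 1347, 1451 and 2139 on RED replicates 1, 2 and 3. Again RED replicate 3 was the highest array, and RED replicate 1 lay within the T37 range. In T37 the mean log2 intensity was 10.32 ± 0.13, the smallest T37 spread of the 6 genes, and in RED it was 10.65 ± 0.36 (SD, n = 3 each). The difference was -0.33 (SE 0.23, 95% interval -0.89 to 0.22; limma adjusted p = 0.46), and -0.13 (95% interval -0.58 to 0.32; limma adjusted p = 0.68) without RED replicate 3.

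CASPS18 and CASPS19 are related caspases of Aedes aegypti. CASPS18 lacks residues needed for catalysis and is known as a decoy that raises the activity of CASPS19. The sources used here do not say whether the probes tell these relatives apart. Both lay toward the dark end, CASPS18 at percentiles 8.76 to 27.6 and CASPS19 at 8.27 to 20.8, so the limit given for Dredd holds for their levels too. CASPS18 had an intensity of 254, 188 and 431 on T37 replicates 1, 2 and 3, and 484, 339 and 637 on RED replicates 1, 2 and 3. T37 replicate 3 was the only T37 array above a RED array, RED replicate 2. In T37 the mean log2 intensity was 8.10 ± 0.61 and in RED it was 8.88 ± 0.46 (SD, n = 3 each). The strains thus differed by -0.78 (SE 0.38, 95% interval -1.71 to 0.14; limma adjusted p = 0.29).

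The CASPS18 difference was below 0 in each of its 17 alternatives, though some of these could not move it and left it at -0.78. It was -0.56 (95% interval -1.51 to 0.38; limma adjusted p = 0.36) without RED replicate 3. Without replicate 3 of both strains it was -0.89 (95% interval -1.53 to -0.25), with a limma adjusted p = 0.045, in the fit that called 32.9% of all genes.

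CASPS19 parted from its relative on RED replicate 3, while the other arrays stood in the same order for both genes. Its intensity was 341, 299 and 426 on T37 replicates 1, 2 and 3, and 501, 388 and 152 on RED replicates 1, 2 and 3. RED held both the highest and the lowest array, and the lowest was RED replicate 3. The SD of log2 intensity in RED was 0.91, the largest of the 6 genes in either strain, against 0.26 in T37 (n = 3 each). The difference was 0.19 (SE 0.46, 95% interval -0.93 to 1.31; limma adjusted p = 0.86). Its sign rested on RED replicate 3, since without that array it was -0.32 (95% interval -0.91 to 0.26; limma adjusted p = 0.39).

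**Figure D2:**
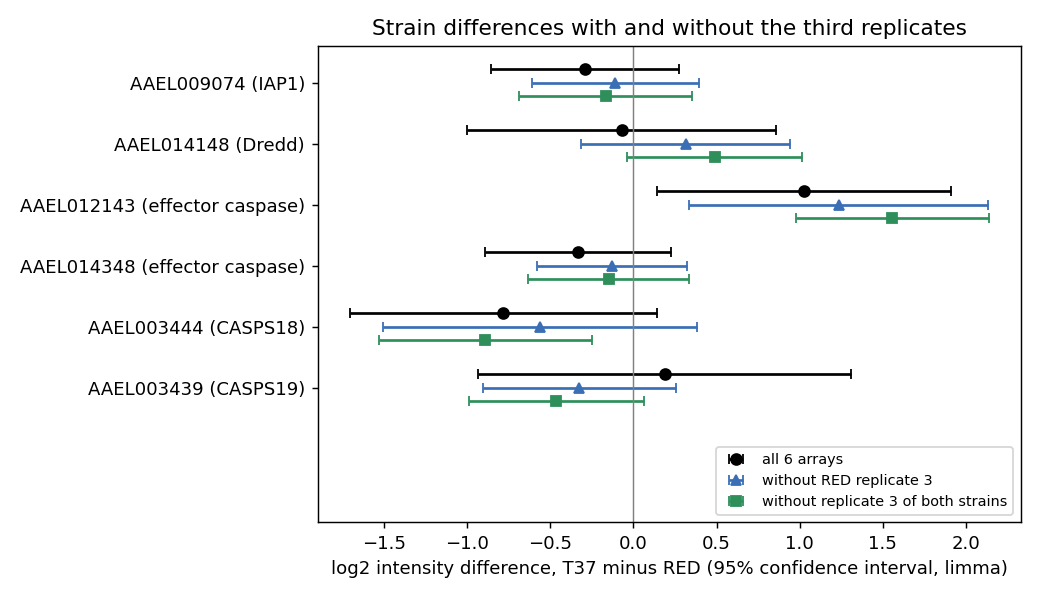
Log2 intensity difference, T37 minus RED (horizontal axis), with 95% confidence intervals from limma for the 6 genes, from all 6 arrays, without RED replicate 3, and without replicate 3 of both strains. With all arrays only the interval of AAEL012143 excludes 0 before adjustment, and Dredd and CASPS19 lie on opposite sides of 0 with and without RED replicate 3.

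RED replicate 3 was an extreme array for 5 of the 6 genes. It was the highest of the 6 arrays for IAP1, Dredd, AAEL014348 and CASPS18, and the lowest for CASPS19. Over all genes it was the highest array for 25.1% and the lowest for 28.5%, so this array was extreme for many genes. Against the mean of RED replicates 1 and 2 it was higher by 0.55 on the log2 scale for IAP1 and by 1.16 for Dredd. For AAEL012143, AAEL014348 and CASPS18 it was higher by 0.62, 0.61 and 0.65. For CASPS19 it differed by -1.54, which in size exceeded 86.6% of all genes, while the median size over all genes was 0.45. That CASPS19 value lay at percentile 8.27 of its array, the array with the lowest 5th percentile. The relatives CASPS18 and CASPS19 thus moved in opposite directions on this array.

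T37 replicate 3 was also unlike the other T37 arrays for several of these genes. Against the mean of T37 replicates 1 and 2 it differed by -0.97 for AAEL012143 and by 0.98 for CASPS18, sizes above 87.1% and 87.5% of all genes. For Dredd the value was -0.52, for CASPS19 0.42, for IAP1 0.18 and for AAEL014348 0.06, with a median size of 0.38 over all genes. For AAEL012143 and CASPS18 T37 replicate 3 thus lay toward the RED values. What sets the replicate 3 arrays apart was not tested.

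**Figure D3:**
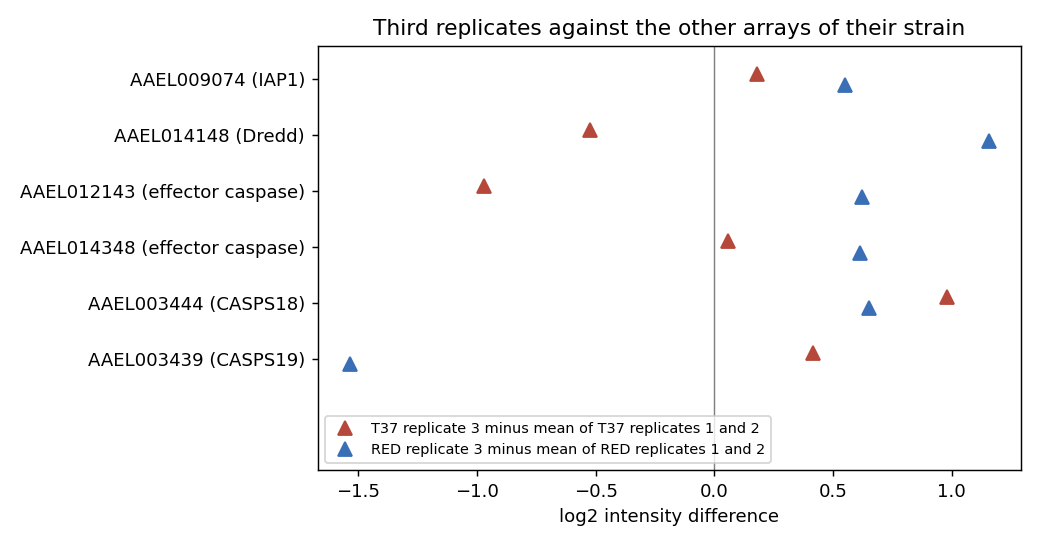
Log2 intensity of replicate 3 minus the mean of replicates 1 and 2 of the same strain (horizontal axis) for the 6 genes, in T37 and in RED. RED replicate 3 lies above the other RED arrays for 5 genes and below them for CASPS19, and T37 replicate 3 departs most for AAEL012143 and CASPS18.

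The balance of each caspase with IAP1 was compared on the same array, as log2 caspase minus log2 IAP1, because probes of different genes differ in brightness and only the change of this value between strains can be read. An exact two-sided permutation test of 3 arrays against 3 cannot go below p = 0.1, so no contrast could pass. For AAEL012143 the value was -4.07, -3.50 and -4.93 on T37 replicates 1, 2 and 3, and -5.84, -5.19 and -5.44 on RED replicates 1, 2 and 3. Every T37 value was above every RED value, although the gene itself overlapped. On T37 replicate 3 and RED replicate 3 its log2 intensity was nearly equal, at 9.15 and 9.18, while that of IAP1 was 14.08 and 14.62. Between these arrays the contrast thus separated through IAP1. The strain difference was 1.32 on the log2 scale, or 2.49-fold, with an exact permutation p = 0.1, the smallest possible, and 0.5 after Benjamini-Hochberg adjustment over the 5 caspases. It was above 0 in each of the 10 alternatives run on it, from 0.98 to 1.72, and was 1.34 without RED replicate 3. Raising values under the 5th percentile to it left the difference at 1.32. With any RED array left out the exact permutation p was 0.2, although the strains still did not overlap. With any T37 array left out the exact permutation p was 0.1. In the deposited values the AAEL012143 contrast was the only 1 of the 5 without overlap. Over all other genes set against IAP1 in the same way, 23.7% did not overlap in either direction and 19.0% had T37 above RED. A separation in 1 of 5 contrasts therefore says little about this caspase.

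For CASPS18 the contrast was lower in T37 by sign, at -5.86 ± 0.46 against -5.37 ± 0.19 in RED (SD, n = 3 each), which differ by -0.49 (exact permutation p = 0.2; adjusted 0.5). T37 replicates 1 and 2, at -6.10 and -6.17, lay below all RED arrays, and T37 replicate 3, at -5.33, lay among them. The contrast of Dredd differed by 0.22 (exact permutation p = 0.6; adjusted 0.9). That of CASPS19 differed by 0.48 (exact permutation p = 0.9; adjusted 0.9) and turned to -0.22 without RED replicate 3. The Dredd value was under the SD of both strains, 0.56 in T37 and 0.35 in RED. That of CASPS19 was above the T37 SD of 0.16 and under the RED SD of 1.21. After cyclic loess the CASPS19 value was 0.70, with an exact permutation p = 0.1. Which contrasts reach the smallest p thus depends on the normalisation and on the arrays used.

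The effector caspase AAEL014348 kept closest to IAP1 among the 5 caspases. Its contrast was -3.66, -3.55 and -3.72 on T37 replicates 1, 2 and 3, and -3.75, -3.49 and -3.56 on RED replicates 1, 2 and 3. The strain means, -3.64 ± 0.09 for T37 and -3.60 ± 0.13 for RED (SD, n = 3 each), differed by -0.04 (exact permutation p = 0.8; adjusted 0.9). On RED replicate 3, where both genes were highest, the contrast lay within the range of the other arrays.

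**Figure D4:**
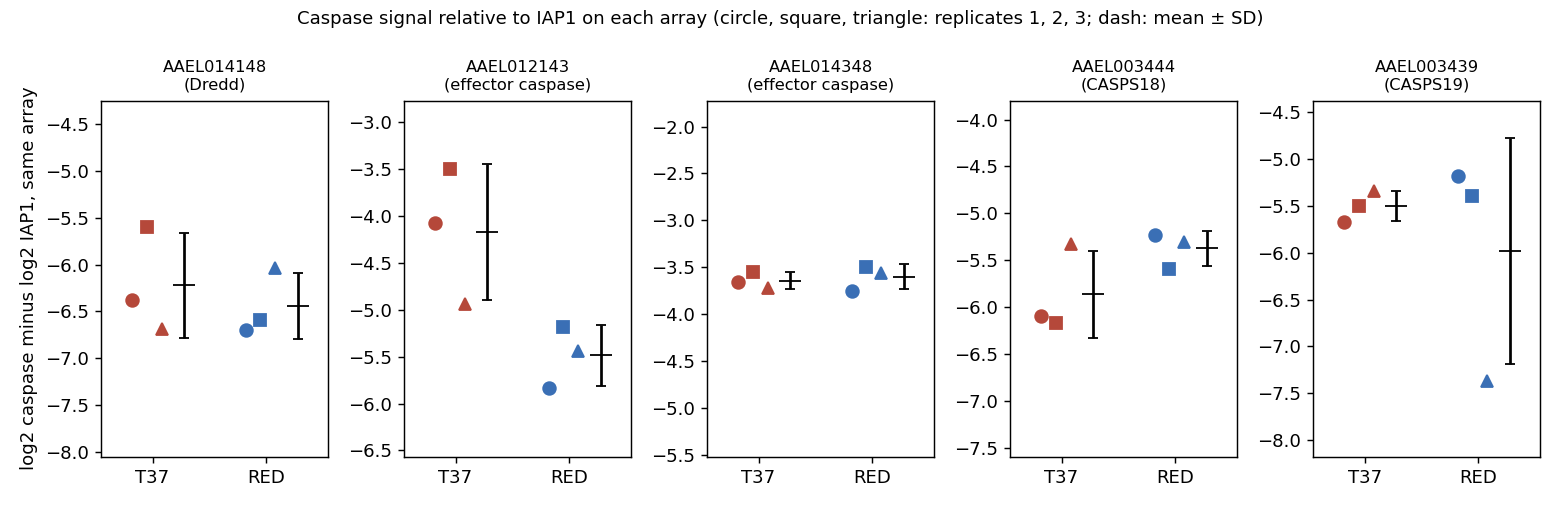
Log2 caspase minus log2 IAP1 on the same array (vertical axis) for the 5 measured caspases, by strain; symbols mark replicates 1, 2 and 3, and the dash with bars is the mean with the SD. All panels span the same log2 range; the strains separate for AAEL012143 alone, and AAEL014348 varies least.

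Likeness of pattern was measured as the mean absolute difference between genes over the 6 arrays, after each gene was centred on its own mean log2 intensity. By this measure AAEL014348 was 0.089 from IAP1, rank 13 among the 12812 other genes. The other caspases were much farther from IAP1, but this distance also grows with a gene's own scatter. Their SDs of log2 intensity were larger than those of IAP1 and AAEL014348 in both strains. CASPS18 and Dredd both stood at 0.34 (ranks 4864 and 4865), CASPS19 at 0.54 (rank 9170) and AAEL012143 at 0.69 (rank 10778). The likeness of AAEL014348 to IAP1 was picked out after its values were seen. It describes 6 arrays, and both genes were highest on RED replicate 3, without which the likeness was not measured.

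The genes closest to IAP1 over the 6 arrays were AAEL012443, at 0.056, and AAEL001509, at 0.060, which the table gives by identifier only. AAEL012443 had an intensity of 5262, 4020 and 4950 on T37 replicates 1, 2 and 3, and 5713, 5117 and 7019 on RED replicates 1, 2 and 3. Like IAP1, it was lowest on T37 replicate 2 and highest on RED replicate 3. Among the caspases themselves, the pair farthest apart was AAEL012143 and CASPS18, at 1.04, and the relatives CASPS18 and CASPS19 were 0.65 apart. The latter distance includes RED replicate 3, where CASPS18 was highest and CASPS19 lowest. The other arrays stood in the same order for both.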

How the data were processed

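The deposited values are intensities on a linear scale, 1 per transcript and array, made by the authors with RMA, per the submitters' processing notes. The sources used here give no RMA version, array design, annotation or genome build. Sample titles gave the strain; the RED descriptions also count these samples among T37 replicates, against their titles. The values were taken to log2 without a pseudocount, and transcripts of a gene were averaged (13471 transcripts, 12813 genes). T37 was tested against RED by lmFit and eBayes of limma 3.58.1, under R 4.3.3 (6 arrays, two-sided, no covariate or filter), with Benjamini-Hochberg adjustment over all genes, a threshold of 0.05 and 95% intervals. The procedure was tested on simulated data. The number of arrays limits the precision. All 7 genes of the list were to be named, with the 2 genes most like IAP1 and the 2 most like Dronc; the latter were not run. The members and tests were chosen with earlier results of these data known. Identifiers found in the reference table numbered 0, so other apoptosis genes, tissue markers, positions and sequences were not used here. Replicate numbers were not treated as pairs, since the deviations from the strain mean of arrays with equal numbers had correlations of -0.25, -0.16 and -0.17 across genes. Some arrays with unequal numbers deviated together. Deviations from a strain mean cancel out within each gene, so negative correlations at equal numbers entail positive ones at unequal numbers. The correlation was 0.46 for T37 replicate 3 with RED replicate 1, 0.42 for T37 replicate 1 with RED replicate 2, and 0.37 for T37 replicate 2 with RED replicate 3. Whether these arrays share anything beyond that was not tested, and the fit treats all 6 as independent.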

Additional observations from a re-analysis of the deposited data

How the results depend on the processing

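The count of 0 of 6 genes called held in 16 of 18 alternatives; it was 2 without replicate 3 of both strains and 1 with array weights. The count over all genes, 580, was 10 to 957 when 1 array was left out (15, 10 and 313 without T37 replicates 1, 2 and 3, and 83, 37 and 957 without RED replicates 1, 2 and 3), 4221 without replicate 3 of both strains, 1529 with the 5th percentile as a covariate, 3841 with array weights and 0 with the replicate block (2467 at an unadjusted p under 0.05). Under the block, 0 of the 6 genes were called by limma, with 1 at an unadjusted p under 0.05, which was CASPS18 (unadjusted p = 0.015) in place of AAEL012143 (0.071), and no array deviated most like its own number in the other strain. AAEL012143 passed without replicate 3 of both strains (1.56) and with array weights (1.46), and CASPS18 (AAEL003444) passed without replicate 3 of both strains (-0.89). Neither passed in the other alternatives, where the difference of AAEL012143 when 1 array was left out ran from 0.80 to 1.35 and that of CASPS18 from -1.11 to -0.51. The difference of Dredd (AAEL014148) turned positive under quantile normalisation (0.21), cyclic loess (0.15), array weights (0.45) and without replicate 3 of both strains (0.49), and ran from -0.27 to 0.31 when 1 array was left out. That of CASPS19 (AAEL003439) turned negative without replicate 3 of both strains (-0.46) and with array weights (-0.32), and ran from -0.32 to 0.54 when 1 array was left out. IAP1 and AAEL014348 stayed below 0 and uncalled in 18 of 18 alternatives each, though some alternatives could not move these estimates. Of the contrasts with IAP1, that of AAEL014348 turned to 0.020 without replicate 3 of both strains and to 0.0080 under quantile normalisation, and ran from -0.12 to 0.012 when 1 array was left out; that of CASPS19 turned to -0.30 without replicate 3 of both strains and ran from -0.22 to 0.88; that of Dredd ran from -0.090 to 0.45. The cause of these changes was not tested. Dredd, CASPS18 and CASPS19 have no value without the dimmest 25% of genes, and the results planned for Dronc were not run.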
